A study of Mus musculus with 6 samples.

Results

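The 10 genes described here are the transcription factors that set and keep rod photoreceptor identity: the targeted gene Nr2e3, with Nrl, Crx, Otx2, Neurod1, Prdm1, Mef2c, Mef2d, Casz1 and Rax. They were taken by gene symbol from count tables of 49997 genes, and all 10 were found and all 10 passed the count filter, among 17138 genes tested. The measurement was RNA-seq of photoreceptors sorted from mouse retina. Every animal in both groups carried Cas9 from the Rosa26 locus and received an adeno-associated virus (AAV, 7m8 capsid) under the retina that expressed mCherry from the human GRK1 promoter, a promoter active in photoreceptors. The libraries labelled Nr2e3_KO by the submitters, called Nr2e3-guide libraries here, came from animals given a guide RNA against Nr2e3; the control libraries came from animals given a non-targeting control guide (NTC). There were 3 libraries in each group, each from about 100000 mCherry+ cells of 2 retinas of 1 animal, sorted 6 months after injection. The labels give the age at injection both as postnatal day 21 and as 4 weeks, so the gene was targeted in retinas whose rods had already formed. Guide replicate 1 was male and guide replicates 2 and 3 were female, while the 3 NTC animals were male.

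NR2E3 is a nuclear receptor of photoreceptors that works on the same promoters as NRL and CRX, activating rod genes and repressing cone genes. In the developing mouse retina OTX2 lies upstream of Crx, NRL commits a photoreceptor precursor to the rod fate, and NRL in turn activates Nr2e3. Loss of Nr2e3 in the rd7 mouse, and of NR2E3 in human enhanced S-cone syndrome, gives photoreceptors with mixed rod and cone features.

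Nr2e3 lies on the minus strand at chr9:59942771-59960659 (GRCm38, GENCODE M21). Its coding transcript has 8 exons and starts at position 59950117, and a longer non-coding form of the gene reaches further upstream. A non-coding RNA gene, Gm7616, begins 1168 bases upstream of the coding start on the plus strand and runs away from it, inside the span of the longer form. In GENCODE M21 none of the 4 exons of Gm7616 overlaps an exon of Nr2e3. RefSeq, which all counted names match, gives Gm7616 a shorter span, chr9:59951296-59952403. Which form was counted is not given. The sequences below, credited to RefSeq (GRCm38.p6) for the upstream regions and to GENCODE M21 (GRCm38) for the exon, show the bases just upstream of the Nr2e3 coding start, the first exon of Gm7616 and, for comparison, the upstream region of Crx, the member whose level served as the denominator in the ratios given further on. The Nr2e3 run is 212 bases, chr9:59950118-59950329, minus strand. The Crx run is 237 bases, chr7:15879969-15880205, minus strand. The Gm7616 run is its first exon of 263 bases, chr9:59951285-59951547, plus strand. Capitals mark matches, on either strand, to 4 motifs of 6 letters. TAATCC is the core bound by CRX and OTX2, TGCTGA is part of the NRL element, AAGTCA is part of the NR2E3 element and CAGATG is a form of E-box bound by NEUROD1.
Nr2e3 upstream: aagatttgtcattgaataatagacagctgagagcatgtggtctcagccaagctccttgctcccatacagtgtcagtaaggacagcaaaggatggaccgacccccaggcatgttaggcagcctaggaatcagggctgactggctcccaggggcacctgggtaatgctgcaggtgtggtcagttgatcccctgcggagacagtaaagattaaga
Crx upstream: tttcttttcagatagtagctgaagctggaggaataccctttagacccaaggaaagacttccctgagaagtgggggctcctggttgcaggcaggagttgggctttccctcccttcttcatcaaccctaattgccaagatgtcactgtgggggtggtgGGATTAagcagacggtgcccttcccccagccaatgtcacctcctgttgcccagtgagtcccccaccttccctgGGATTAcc
Gm7616 exon: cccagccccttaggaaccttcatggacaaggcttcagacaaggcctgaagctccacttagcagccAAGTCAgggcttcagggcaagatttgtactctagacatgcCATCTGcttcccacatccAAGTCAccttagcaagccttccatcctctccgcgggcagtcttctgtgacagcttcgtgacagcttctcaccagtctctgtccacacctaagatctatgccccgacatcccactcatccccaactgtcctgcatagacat
The Crx run holds TAATCC as its reverse complement GGATTA, at 94 and 21 bases before the RefSeq start, and the Nr2e3 run holds none of the 4 motifs. No marked match overlaps another. Over the 250 bases before the start, 9 of the 10 members had an entry, with 15 start sites between them. TAATCC was found before a start of 3 members (Crx, Otx2 and Casz1), TGCTGA before one of 4 (Neurod1, Otx2, Mef2c and Mef2d), CAGATG before one of 3 (Nrl, Otx2 and Mef2c) and AAGTCA before none. Among 32851 mouse start sites with a window of the same length, 6.25% held TAATCC, 16.1% TGCTGA, 14.4% CAGATG and 13.1% AAGTCA. These shares are per start site, while a member was counted if any of its start sites held the motif. Otx2, for example, has 4 start sites, so the member counts and the shares are not directly comparable. These matches describe letters in a window and are not binding sites.

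Counts assigned to genes summed to 24705561 to 33098812 per Nr2e3-guide library and to 32626751 to 34286248 per NTC library. Levels are given as counts per 1000000 of these sums (CPM), and 3 counts, the limit a count of 0 allows, correspond to 0.0875 to 0.121 CPM. These limits cover counting error only. The summed level of 5 photoreceptor markers was 118480 to 124388 CPM in Nr2e3-guide libraries and 116943 to 137898 CPM in NTC libraries, against at most 344 CPM for 8 amacrine markers and 318 CPM for 8 bipolar markers in any library, so photoreceptor RNA dominated as labelled. NTC replicate 3 stood apart from NTC replicates 1 and 2: 84.7% of all tested genes had a level in it above or below both, against 67.7% for NTC replicate 1 and 47.4% for NTC replicate 2 counted the same way. The summed level of 10 microglia markers was 34.3 to 161 CPM in Nr2e3-guide libraries, 316 CPM in NTC replicate 3 and 30.9 and 35.0 CPM in the other NTC libraries. That of 9 Muller glia markers was 772 to 1186 CPM in Nr2e3-guide libraries, 1215 CPM in NTC replicate 3 and 685 and 692 CPM in the other NTC libraries. Values are therefore given for each library, and the fit without NTC replicate 3 is given where it matters.

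None of the 10 factors passed the test between the groups. A gene was called when the adjusted p of edgeR's quasi-likelihood test (Benjamini-Hochberg over all genes tested) was under 0.05, and 0.344% of all tested genes were called, 54 higher and 5 lower in Nr2e3-guide libraries. The call count for the members was also 0 by DESeq2, which called 1.29% of the genes it tested, and by limma-voom, which called 0.327%. At an unadjusted p under 0.05, 2 members passed in edgeR (Nr2e3 and Otx2), against 5.69% of all tested genes. At the same limit 2 members passed in limma-voom, with 1011 of 17138 genes, and 0 in DESeq2, with 1256 of 18843 genes. The fitted log2 fold change was positive for 7 members and negative for 3, with a median of 0.19, against a median of -0.01 over all tested genes. The largest was 0.61 (Prdm1), and for 9 of the 10 the fitted value ± 2 SE of this fit excluded a change of 2-fold either way, while the interval of Prdm1 reached it. The interval of Casz1 also reached it without NTC replicate 3, without Nr2e3-guide replicate 2 and without replicate 3 in either group. Those of Casz1 and Mef2d reached it with sex as a term and in males only. Because cells were sorted in bulk, fewer cells expressing a gene and less RNA of it per cell cannot be told apart, and the share of the sorted cells that carried an edit was not analysed here. No label says more of the replicates than 1 animal each, so p-values measure the spread between these animals.

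**Figure D1:**
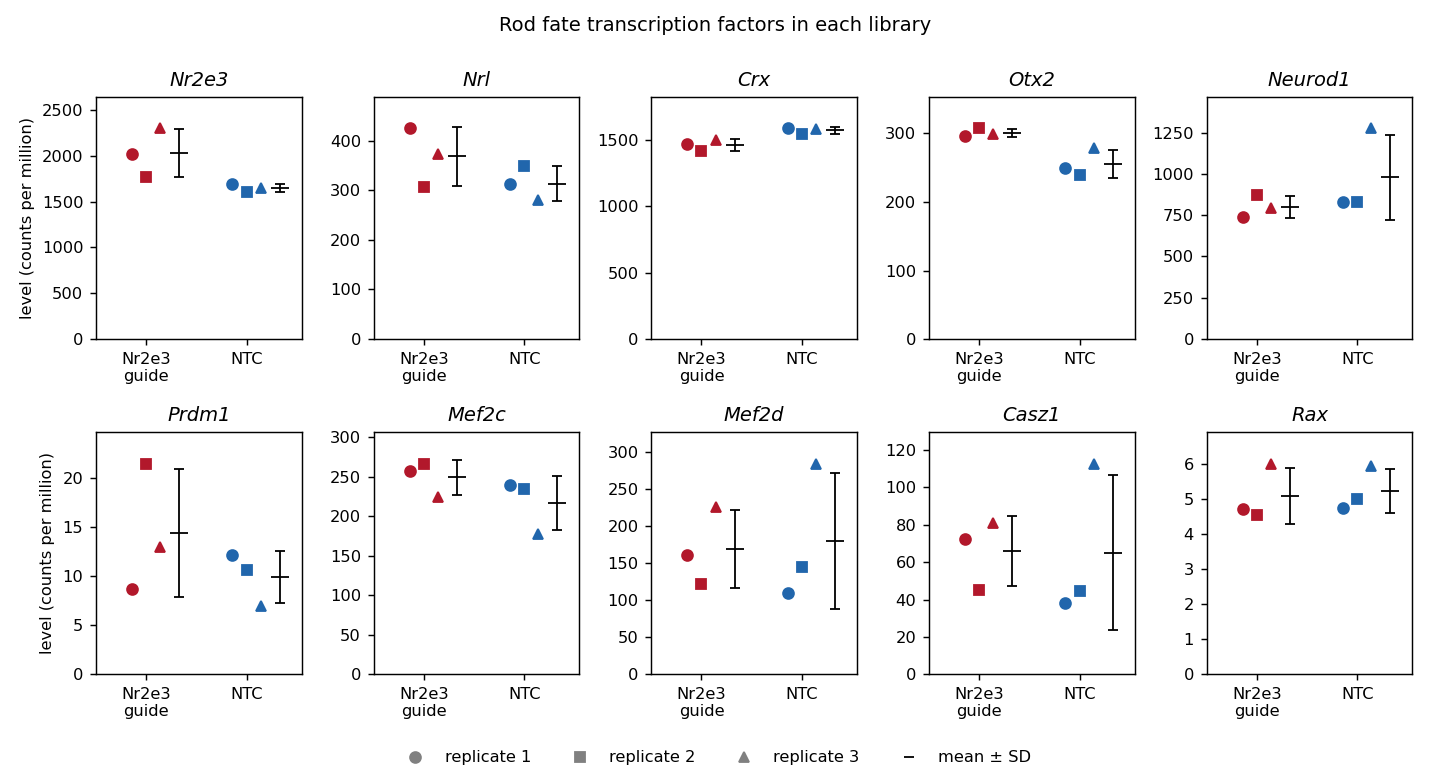
Level (CPM, linear axis from 0) of each of the 10 factors in the 3 Nr2e3-guide libraries (red, left) and the 3 NTC libraries (blue, right), with mean ± SD in black. The 3 Nr2e3-guide libraries lie above all NTC libraries for Nr2e3 and Otx2 and below them for Crx, and for Neurod1, Mef2d and Casz1 the highest point is NTC replicate 3 (triangle).

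Nr2e3, the target of the guide, was not lower in the libraries labelled as its knockout. Its level was 2024, 1773 and 2303 CPM in Nr2e3-guide replicates 1, 2 and 3, against 1695, 1608 and 1645 CPM in NTC replicates 1, 2 and 3. Every Nr2e3-guide library was above every NTC library, and the Nr2e3-guide libraries were more spread (CV 13.04%) than the NTC libraries (CV 2.65%). The mean was 2033 ± 265 CPM with the Nr2e3 guide and 1649 ± 43.7 CPM with NTC (SD, n = 3 each), and the fitted log2 fold change was 0.37 (SE 0.13; edgeR adjusted p = 0.716), which ranked 591 by p among all tested genes. The log2 fold change was 0.27 to 0.43 under all 17 alternative settings, with an adjusted p of 0.348 or more. With sex as a term it was 0.38, and between the males only (1 Nr2e3-guide library against 3 NTC libraries) it was 0.36. A count over the whole gene does not show small insertions or deletions at a cut site, so this level says nothing of the protein and does not check the labels.

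Gm7616 was the gene of the Nr2e3 locus that passed the test. It was named because it lies within the span of Nr2e3, and its function is not known here. It had 438, 426 and 401 counts (16.1, 17.2 and 12.1 CPM) in Nr2e3-guide replicates 1, 2 and 3, against 102, 85 and 47 counts (3.13, 2.51 and 1.37 CPM) in NTC replicates 1, 2 and 3. The lowest Nr2e3-guide library was thus above the highest NTC library. Its log2 fold change was 2.76 (SE 0.40; edgeR adjusted p = 0.0481). The direction was the same under all 17 alternatives, at 2.46 to 3.07, but the adjusted p passed the threshold in 9 of them and ran up to 0.525. Leaving out a library ended the call for each library but NTC replicate 3: the adjusted p was 0.234, 0.190 and 0.110 without Nr2e3-guide replicates 1, 2 and 3, 0.107 and 0.296 without NTC replicates 1 and 2, and 0.0293 without NTC replicate 3. With sex as a term it was 0.290. The library kit does not mark strand, so reads of Gm7616 cannot be told apart from unspliced reads of the longer Nr2e3 form that spans it.

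**Figure D2:**
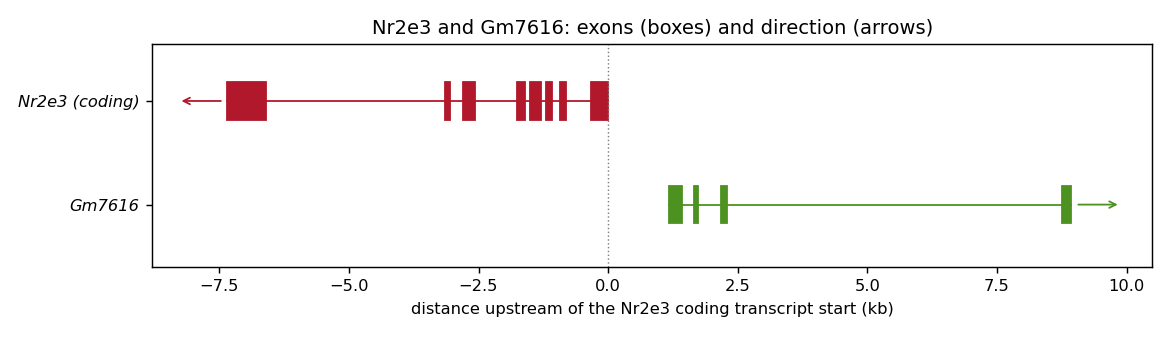
Exons (boxes) and direction of transcription (arrows) of the Nr2e3 coding transcript (top, red) and of Gm7616 (bottom, green), by distance upstream of the Nr2e3 coding start in kilobases (GENCODE M21). The first base of Gm7616 lies 1168 bases upstream of that start, and the boxes do not overlap.

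Nrl encodes the leucine zipper factor that commits precursors to the rod fate; the gene lies at chr14:55518978-55524981 on the minus strand. Its level was 425, 306 and 374 CPM in Nr2e3-guide replicates 1, 2 and 3, against 312, 349 and 280 CPM in NTC replicates 1, 2 and 3. The groups overlapped, since Nr2e3-guide replicate 2 was below NTC replicates 1 and 2. The mean was 368 ± 59.5 CPM with the Nr2e3 guide and 314 ± 34.4 CPM with NTC (SD, n = 3 each), and the log2 fold change was 0.30 (SE 0.17; edgeR adjusted p = 0.985). Without NTC replicate 3, the lowest library, it was 0.18 (SE 0.16).

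Crx and Otx2 are paired-class homeodomain factors with the same core motif, and OTX2 activates Crx. Crx (chr7:15865947-15879968, minus strand) had 1467, 1420 and 1504 CPM in Nr2e3-guide replicates 1, 2 and 3, against 1589, 1545 and 1587 CPM in NTC replicates 1, 2 and 3. It varied little within a group, with a CV of 2.89% among Nr2e3-guide libraries and 1.57% among NTC libraries. The Nr2e3-guide libraries were all below the NTC libraries on this scale, but with the trimmed mean (TMM) factors of the fit the groups overlapped (on that scale 2 members and 12.1% of all tested genes did not), and the log2 fold change was -0.03 (SE 0.12; edgeR adjusted p = 0.996). Otx2 (chr14:48657677-48673819, minus strand) had 296, 308 and 299 CPM in Nr2e3-guide replicates 1, 2 and 3, against 249, 240 and 279 CPM in NTC replicates 1, 2 and 3. The Nr2e3-guide libraries lay close together, above all NTC libraries on both scales. The log2 fold change was 0.31 (SE 0.12; edgeR adjusted p = 0.784), at 0.23 to 0.38 under the 17 alternatives. Otx2os1 is an antisense RNA gene that shares exon positions with Otx2 in GENCODE M21. Otx2os1 had 48.3, 42.5 and 38.2 CPM in Nr2e3-guide replicates 1, 2 and 3, against 40.9, 46.3 and 45.5 CPM in NTC replicates 1, 2 and 3. In GENCODE M21 the pair shares 154 exon bases, 3.65% of the exon bases of Otx2. In RefSeq, which all counted names match, Otx2 ends at position 48667644 and no other gene overlaps it. The annotation used for counting is not given, so whether the pair shared reads is not known. The groups overlapped for Otx2os1. Groups that did not overlap in CPM were found for 3 members, against 12.2% of all tested genes (4.63% with the Nr2e3-guide libraries above and 7.55% with them below).

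Ratios of counts within a library do not depend on how libraries are scaled to each other, so the rod determinants were also set against Crx. The Nr2e3 to Crx ratio was 1.38, 1.25 and 1.53 in Nr2e3-guide replicates 1, 2 and 3, against 1.07, 1.04 and 1.04 in NTC replicates 1, 2 and 3. The 2 groups did not overlap, and the NTC libraries were nearly alike, NTC replicate 3 included. The difference in mean log2 ratio was 0.40, with an exact two-sided permutation p of 0.1, the smallest that 3 libraries against 3 can give, and 0.300 adjusted over the 6 ratios computed. The Nrl to Crx ratio was 0.290, 0.216 and 0.249 in Nr2e3-guide replicates 1, 2 and 3, against 0.196, 0.226 and 0.176 in NTC replicates 1, 2 and 3, and the groups overlapped (difference 0.33, exact permutation p = 0.2, adjusted 0.4). The Otx2 to Crx ratio was 0.202, 0.217 and 0.199 in Nr2e3-guide replicates 1, 2 and 3, against 0.157, 0.155 and 0.176 in NTC replicates 1, 2 and 3, and did not overlap (difference 0.34, exact permutation p = 0.1, adjusted 0.300). The remaining 3 ratios overlapped between the groups: the difference in mean log2 ratio was 0.07 for Nr2e3 to Nrl, -0.16 for Neurod1 to Crx and 0.22 for Mef2c to Mef2d, with exact permutation p of 0.6, 0.6 and 0.7. With a smallest possible p of 0.1, no ratio could pass the threshold in this design.

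**Figure D3:**
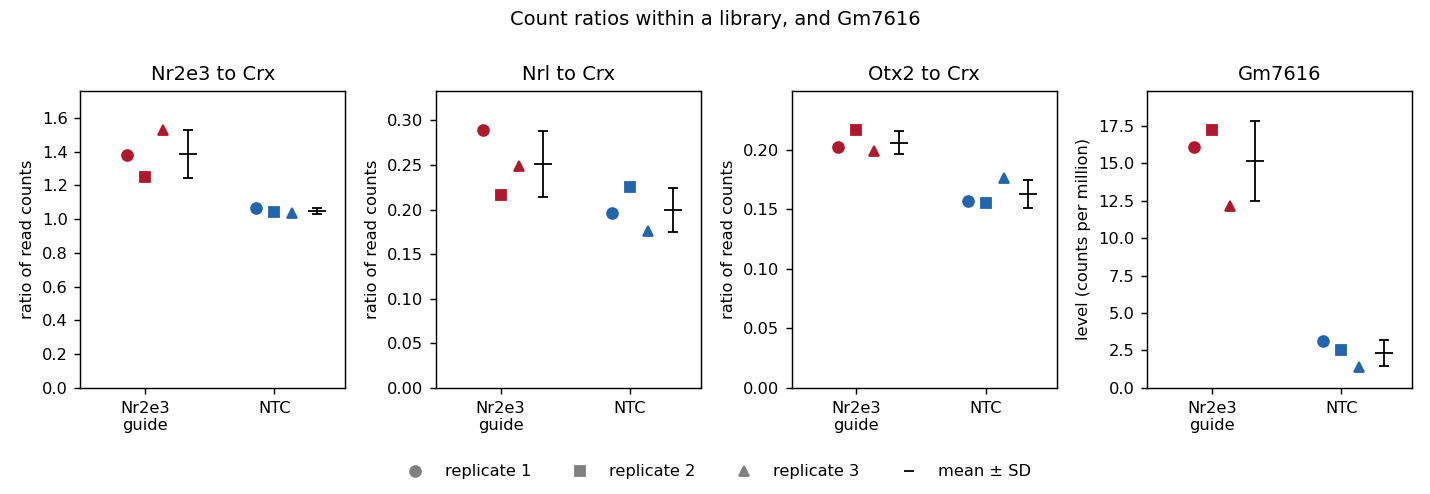
Ratios of read counts within a library (first 3 panels) and the level of Gm7616 in CPM (last panel) for the Nr2e3-guide libraries (red, left) and the NTC libraries (blue, right), linear axes from 0, with mean ± SD in black. Nr2e3 to Crx is 1.25 to 1.53 in Nr2e3-guide libraries and 1.04 to 1.07 in NTC libraries, and the Nrl to Crx panel alone shows overlapping groups.

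Neurod1 and Prdm1 encode factors that act in photoreceptors or their precursors. NEUROD1 is a basic helix-loop-helix factor needed for photoreceptor survival, and PRDM1 (Blimp1) is a zinc finger repressor that holds back the bipolar programme in precursors. Neurod1 (chr2:79452521-79456751, minus strand) had 741, 871 and 792 CPM in Nr2e3-guide replicates 1, 2 and 3, against 829, 832 and 1277 CPM in NTC replicates 1, 2 and 3. The first 5 of these values lie close together, and NTC replicate 3 was 1.54 times the mean of the other NTC libraries. The log2 fold change was -0.20 (SE 0.18; edgeR adjusted p = 0.995) and -0.02 (SE 0.14) without NTC replicate 3. Cerkl, a ceramide kinase-like gene, shares exon positions with Neurod1 on the same strand in GENCODE M21. In RefSeq, which all counted names match, no other gene overlaps Neurod1. Cerkl had 10.6, 15.2 and 13.9 CPM in Nr2e3-guide replicates 1, 2 and 3, against 11.3, 12.2 and 44.0 CPM in NTC replicates 1, 2 and 3. It was thus high in the same library as Neurod1, and whether the pair shared reads was not tested. The summed level of markers of amacrine cells, which can also express Neurod1, was 57.2 to 285 CPM in Nr2e3-guide libraries, 144 CPM in NTC replicate 3 and 286 and 344 CPM in the other NTC libraries; their part in the level of Neurod1 was not tested.

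Prdm1 (chr10:44437177-44528501, minus strand) was scarce in these adult cells, with 8.69, 21.5 and 12.96 CPM in Nr2e3-guide replicates 1, 2 and 3, against 12.1, 10.6 and 6.94 CPM in NTC replicates 1, 2 and 3. Nr2e3-guide replicate 2 was the highest library and the groups overlapped. The log2 fold change was 0.61 (SE 0.41; edgeR adjusted p = 0.995), and with sex as a term it turned to -0.12. Prdm1 was the one member whose interval, -0.20 to 1.417 as the fitted value ± 2 SE, reached a 2-fold change.

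Mef2c and Mef2d encode MADS-box factors. In mouse photoreceptors MEF2D works with CRX on photoreceptor genes, and Mef2c is a target of NRL. Mef2c (chr13:83504034-83667080, plus strand) had 257, 266 and 224 CPM in Nr2e3-guide replicates 1, 2 and 3, against 239, 234 and 178 CPM in NTC replicates 1, 2 and 3. The groups overlapped and NTC replicate 3 was lowest. Microglia also express Mef2c, and the part of these cells in its level was not tested. The log2 fold change was 0.27 (SE 0.19; edgeR adjusted p = 0.995) and 0.10 (SE 0.16) without that library. Mef2d (chr3:88142372-88172086, plus strand) had 160, 122 and 225 CPM in Nr2e3-guide replicates 1, 2 and 3, against 110, 145 and 284 CPM in NTC replicates 1, 2 and 3. It was highest in replicate 3 of both groups, 2.24 times the mean of the other NTC libraries in NTC replicate 3. Its log2 fold change was -0.0021 (SE 0.33; edgeR adjusted p = 0.9998), and 0.42 (SE 0.23; edgeR adjusted p = 0.713) without NTC replicate 3. The antisense gene 1700113A16Rik, which shares exon positions with Mef2d, held at most 35 counts in any library, against 9741 counts of Mef2d in NTC replicate 3. The unstranded reads of Gm52043 and Gm52044, which lie within the span of Mef2c, averaged 23.7 and 13.9 CPM in Nr2e3-guide libraries and 24.998 and 14.99 CPM in NTC libraries.

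Casz1 and Rax complete the group. CASZ1 is a zinc finger factor that keeps the nuclear organisation of mouse rods, and RAX is a homeodomain factor of early retinal progenitors that persists in photoreceptors. Casz1 (chr4:148804429-148954889, plus strand) had 72.5, 44.9 and 80.7 CPM in Nr2e3-guide replicates 1, 2 and 3, against 38.0, 44.7 and 113 CPM in NTC replicates 1, 2 and 3. NTC replicate 3 was the highest library, 2.74 times the mean of the other NTC libraries, which held the lowest values. The log2 fold change was 0.12 (SE 0.39; edgeR adjusted p = 0.996). Without NTC replicate 3 it was 0.69 (SE 0.23; edgeR adjusted p = 0.426, with 0.5% of all tested genes called), while it was -0.12 without NTC replicate 1, -0.082 without NTC replicate 2 and -0.013 without Nr2e3-guide replicate 3, so that its direction was not settled. Genes inside its span were scarce: Gm13205, Gm15969 and Gm42352 averaged 0.627, 0.654 and 0.961 CPM in Nr2e3-guide libraries and 0.712, 1.13 and 1.53 CPM in NTC libraries. Rax, on the minus strand of chromosome 18, had 4.73, 4.53 and 6.01 CPM in Nr2e3-guide replicates 1, 2 and 3, against 4.75, 5.01 and 5.95 CPM in NTC replicates 1, 2 and 3. The libraries of each group covered the same range, and the log2 fold change was 0.03 (SE 0.26; edgeR adjusted p = 0.997). In GENCODE M21 the antisense gene Raxos1 shares 1604 exon bases with Rax, 27.4% of the exon bases of Rax. Raxos1 was not among the counted names. Reads there cannot be told apart without strand, and their part in the level of Rax was not tested.

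**Figure D4:**
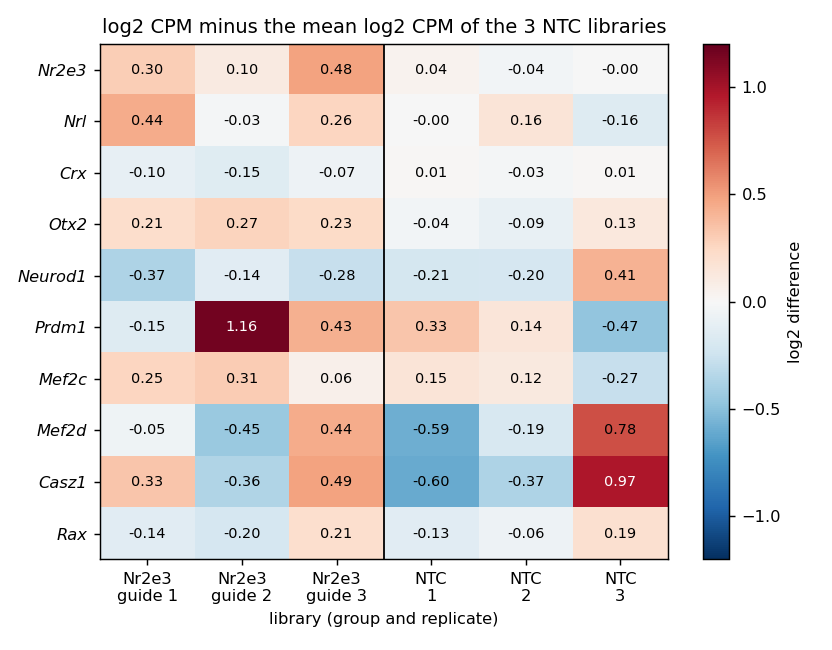
Difference in log2 CPM between each library and the mean of the 3 NTC libraries, for the 10 factors (rows), with Nr2e3-guide libraries left of the line and NTC libraries right of it. Casz1, Mef2d, Otx2 and Rax are above 0 in replicate 3 of both groups. Nr2e3, Otx2 and Mef2c are above 0 in all 3 Nr2e3-guide libraries.

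Several factors varied among libraries of the same group. NTC replicate 3 had the highest level of all 6 libraries for 3 members (Neurod1, Mef2d and Casz1) and the lowest for 3 (Nrl, Prdm1 and Mef2c). Mef2d and Casz1 were also raised in Nr2e3-guide replicate 3, by 0.69 and 0.50 on the log2 scale over the mean of Nr2e3-guide replicates 1 and 2. The Mef2c to Mef2d ratio was accordingly lowest in replicate 3 of each group, at 0.994 in Nr2e3-guide replicate 3 and 0.626 in NTC replicate 3, against 1.599 to 2.19 in the other 4 libraries. Mitochondrial mRNA took 1.31% of gene counts in Nr2e3-guide replicate 3 and 1.27% in NTC replicate 3, against 2.496 and 2.75% in the other Nr2e3-guide libraries and 2.52 and 2.16% in the other NTC libraries. Reads without a unique position were also fewest in the replicate 3 libraries, at 4.62% in Nr2e3-guide replicate 3 and 4.23% in NTC replicate 3, against 5.56 to 6.25% in the other 4 libraries. The part of RNA quality or of other cells in this spread was not tested.

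**Figure D5:**
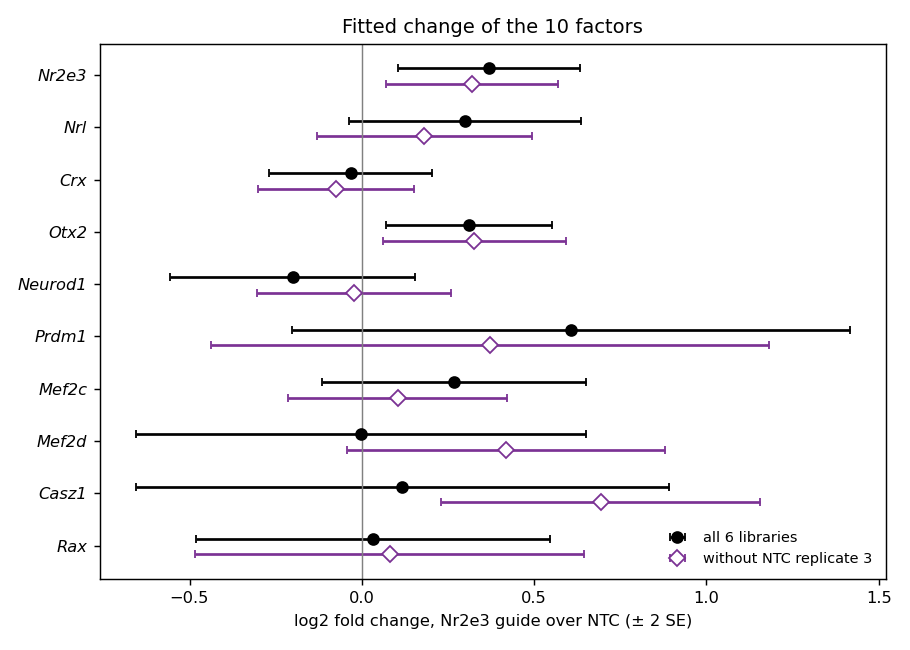
Fitted log2 fold change (Nr2e3 guide over NTC) ± 2 SE of the 10 factors with all 6 libraries (black) and without NTC replicate 3 (purple, open). The bars of Nr2e3 and Otx2 stay above 0 in both fits, and Casz1 moves from 0.12 to 0.69 when that library is left out; no member is called in either fit.

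The factors spanned a wide range of levels per length (CPM per kilobase of the longest coding transcript, mean of 3 libraries). Nr2e3 was the most abundant at 998 ± 130 CPM per kilobase with the Nr2e3 guide and 810 ± 21.4 CPM per kilobase with NTC. Crx followed at 501 ± 14.5 and 539 ± 8.46, then Neurod1 at 294 ± 24.1 and 359 ± 94.3, Nrl at 147 ± 23.8 and 125 ± 13.7, and Otx2 at 116 ± 2.26 and 98.8 ± 7.92 CPM per kilobase with the Nr2e3 guide and with NTC (SD, n = 3 each). This order of the 5 held in all 6 libraries, with ranges apart between neighbours. Mef2c (39.6 ± 3.55 with the Nr2e3 guide, 34.6 ± 5.41 with NTC) and Mef2d (31.3 ± 9.70 and 33.3 ± 17.01) came next and did not differ beyond their spread. Casz1 (8.33 ± 2.37 with the Nr2e3 guide, 8.21 ± 5.21 with NTC) stood above Rax (2.19 ± 0.346 and 2.25 ± 0.271) and Prdm1 (2.72 ± 1.23 and 1.88 ± 0.507), which overlapped. Both this length and the union of all annotated exons were chosen with the data seen, and the order depended on which was used. With the exon union, Crx and Nr2e3 overlapped, as did Otx2 and Nrl and, among Nr2e3-guide libraries, Casz1 and Prdm1. Mef2d then stood above Mef2c, and Prdm1 above Rax, in all 6 libraries with ranges apart.

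The genes whose profile over the 6 libraries was most like a member's were found among 9529 genes of at least 5 CPM by the root mean square difference of centred log2 TMM-scaled CPM. For Nr2e3 they included Psmd9 and Ube2m (0.052 and 0.053, against 0.207 for the spread of Nr2e3 itself). For Nrl they were Ddost, Rcn2 and A430105J06Rik (0.036, 0.051 and 0.056, against 0.230 for Nrl). None of these genes was called. With 6 libraries and so many genes, close profiles are a description only.

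Other genes of the network were read from lists, and edgeR called 0 genes in each of them with all 6 libraries. Without NTC replicate 3, an alternative chosen with the data seen, it called 3 of the cone genes and 0 in each other list, and the median log2 fold change moved from -0.22 to -0.01 for the family relatives and from -0.08 to 0.03 for the partners. Of 13 family relatives of the members (other MEF2, NEUROD, MAF, OTX and PRDM genes, and the nuclear receptor gene Nr2e1), 9 were tested, 1 with a positive and 8 with a negative log2 fold change, median -0.22; the most abundant was Mef2a, at 33.4 ± 3.54 CPM with the Nr2e3 guide and 37.8 ± 6.10 CPM with NTC (log2 fold change -0.09). Of 17 partners and upstream regulators of the rod factors, all were tested, with a median of -0.08. In edgeR 2 of them had an unadjusted p under 0.05, against 5.69% of all tested genes. They were Esrrb (log2 fold change 0.41), named after its values were seen, and Pias3 (-0.45), in opposite directions. Among the 17, Rorb, an orphan nuclear receptor upstream of Nrl, averaged 504 ± 79.7 CPM with the Nr2e3 guide and 423 ± 46.3 CPM with NTC (log2 fold change 0.33). Pias3, a SUMO ligase that acts on NR2E3, averaged 178 ± 47.9 CPM with the Nr2e3 guide and 255 ± 16.8 CPM with NTC (-0.45). Samd11, a partner of rod-specific Polycomb repression, averaged 296 ± 124 CPM with the Nr2e3 guide and 401 ± 148 CPM with NTC (-0.36).

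Factors of the alternative cone fate had negative fitted values with all 6 libraries but were not called. Of 11 cone and early photoreceptor factors, 8 were tested, all 8 with a negative log2 fold change, median -0.49, against -0.01 over all tested genes. Markers of inner retinal cells lay on the same side, with all 8 bipolar markers (median -0.41) and all 8 amacrine markers (median -0.60) negative. The part of these cells was not tested. Without NTC replicate 3, 9 of the cone and early photoreceptor factors were tested, 1 positive and 8 negative, median -0.40. Ikzf1 then turned to 0.93, Pou2f2 moved from -1.09 to -0.20 and Rxrg from -0.73 to -1.16. Onecut2, Pou2f2, Ikzf1 and Tbx2 were scarce, averaging 1.25, 0.62, 0.61 and 0.42 CPM over the 6 libraries. Thrb, the thyroid hormone receptor that directs M-cone opsin expression, had 184, 183 and 202 CPM in Nr2e3-guide replicates 1, 2 and 3, against 262, 244 and 233 CPM in NTC replicates 1, 2 and 3, and the groups did not overlap (log2 fold change -0.31, SE 0.13). Rxrg, a retinoid receptor of cones, averaged 10.4 ± 4.57 CPM with the Nr2e3 guide and 18.1 ± 10.3 CPM with NTC (-0.73), and Pou2f1 42.6 ± 5.92 CPM with the Nr2e3 guide and 47.9 ± 2.31 CPM with NTC (-0.10). Of 17 factors of other retinal cell classes, 15 were tested, with a median of -0.26; the most abundant was Pax6, of amacrine and other inner retinal cells, at 20.96 ± 15.03 CPM with the Nr2e3 guide and 27.2 ± 18.5 CPM with NTC. The sorted cells' pigment epithelium marker sum was 1.30 to 4.29 CPM in Nr2e3-guide libraries and 6.30 to 17.2 CPM in NTC libraries, with its defining genes Rpe65, Best1 and Lrat under 1 CPM throughout; the part of these cells in the values above was not tested.

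The targets that these factors share were set beside them. Of 15 rod genes, 10 had a positive and 5 a negative log2 fold change, median 0.04. Gnb1, a rod transducin subunit, averaged 51149 ± 1174 CPM with the Nr2e3 guide and 47361 ± 2663 CPM with NTC (log2 fold change 0.18). Of 11 cone genes, 4 had a positive and 7 a negative log2 fold change, median -0.65; with all 6 libraries edgeR called 0 and DESeq2 called 2. The most abundant, Gnat2, the cone transducin alpha subunit, had 8147, 6636 and 7468 CPM in Nr2e3-guide replicates 1, 2 and 3, against 1086, 1027 and 201 CPM in NTC replicates 1, 2 and 3, and its fitted difference was 3.30 on the log2 scale (SE 0.61, with an adjusted p of 0.121 in edgeR and 1.7e-09 in DESeq2). Without NTC replicate 3 edgeR called it, at 2.83 (SE 0.14, adjusted p = 0.00080), together with Gnb3, a cone transducin beta subunit (1.02, SE 0.12, adjusted p = 0.022), and the cone phosphodiesterase gene Pde6c (2.38, SE 0.17, adjusted p = 0.0030), which is named after its values were seen. In that fit too, 4 of the 11 cone genes had a positive and 7 a negative log2 fold change, median -1.08. DESeq2 with all 6 libraries called Gnat2 and Pde6c. The groups did not overlap for Gnat2, while each of the 10 rod fate factors differed by less than 2-fold in mean level.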

How the data were processed

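Per the labels' protocols, RNA of sorted mCherry+ cells was extracted with Trizol and amplified into libraries by SMARTer Ultra Low chemistry. Such libraries do not record strand. The submitters' processing notes name cutadapt, STAR 2.7.3a, HTSeq 0.12.4, DESeq2 1.42.0 and GRCm38 (mm10); neither annotation nor strand setting is given in the sources used here. The deposited files hold raw read counts per gene, not normalized by the authors. The 5 entries that name no gene held 21.6 to 23.7% of a library's entries and were left out of totals and tests. All 49997 names matched RefSeq GRCm38.p6, and 37891 matched GENCODE M21 once, which gave positions and lengths.

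From these counts, CPM were computed on plain library totals, and fold changes with edgeR 4.0.16 in R 4.3.3 (TMM factors, filterByExpr with a minimum count of 10, glmQLFit and glmQLFTest, group alone as the term), adjusted over 17138 genes. DESeq2 1.42.0 and limma 3.58.1 were alternatives. Each library was left out in turn, and sex, filters and scalings were varied. The test was checked on simulated data. Replicates of a group differed by far more than sampling noise, so none was counted as a duplicate. Named genes were all members, genes overlapping a member, the 3 genes most like Nr2e3 and Nrl, and at most 3 of highest mean CPM from each list; some genes that this rule names are not reported here. The members and lists were chosen with earlier results of these data known.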

Additional observations from a re-analysis of the deposited data

How the results depend on the processing

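No member was called under any of the 17 alternatives, and the lowest adjusted p of any member was 0.253 (Otx2 without replicate 3 in either group). Nr2e3, Nrl, Otx2 and Mef2c kept a positive log2 fold change in all 17. Signs turned for 6 members, Prdm1 with the largest fitted value among them: Rax was -0.040 with plain library totals, -0.058 with sex as a term, -0.070 in males only and -0.0057 without replicate 3 in either group; Prdm1 was -0.12 with sex as a term and -0.14 in males only; Mef2d was 0.059 with limma-voom and 0.21 without replicate 3 in either group; Neurod1 was 0.029 without replicate 3 in either group. Leaving out 1 library at a time gave -0.064 to 0.081 for Rax, -0.23 to 0.42 for Mef2d, -0.12 to 0.69 for Casz1 and -0.074 to 0.019 for Crx. The cause was not tested. The Nr2e3 to Crx difference was 0.32 to 0.47 and the Nrl to Crx difference 0.22 to 0.55 over the 9 alternatives that apply to them.

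The count of all genes called higher and lower, 54 and 5 by edgeR, was 186 and 57 with DESeq2, 130 and 25 with no count filter, 54 and 2 with limma-voom, 39 and 3 with plain library totals and 6 and 0 with sex as a term. Leaving out 1 library at a time gave 14 to 80 higher and 0 to 9 lower, with 14 higher without NTC replicate 1 and 80 without NTC replicate 3. In males only, where the lone Nr2e3-guide library is assumed to vary like the NTC libraries, 0 and 0 were called by edgeR, with 1752 genes at an unadjusted p under 0.05. With the replicate number as a block, 31 and 1 were called, Mef2d was 0.055 and Gm7616 missed the threshold (edgeR adjusted p = 0.0578). The SE of Mef2d was 0.19 with the block and 0.33 without it. Deviations of same-numbered libraries from their group means correlated at 0.164, -0.136 and 0.108, and 3 of 6 libraries correlated best with their own number. The replicate 3 libraries had the lowest shares of mitochondrial mRNA and of reads without a unique position. Whether same-numbered libraries shared a batch is not given by the labels and was not tested. Plain library totals moved the median of all genes by -0.08 on the log2 scale. Gm7616 was examined under these settings as a choice made after seeing the data. With 3 libraries a group, the SE of the members, 0.12 to 0.41, sets what can be seen; counting error is small at 112 counts or more.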
